A study of Mus musculus with 8 samples.

Results

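The genes described here encode 10 proteins of the U4/U6 small nuclear ribonucleoprotein (snRNP) and of the tri-snRNP that it forms with U5. They were named by a list chosen with earlier results of these data known, and were matched by Ensembl identifier to the deposited count table. All 10 were found among 55385 genes, and all 10 passed the expression filter, with 17445 genes tested in all. The data are poly(A)-selected RNA-Seq of R1 mESCs, a mouse embryonic stem cell line of WT genotype grown in N2B27 medium with 2i and LIF on coated plates. Cells were infected on each of 2 consecutive days with lentivirus carrying a hairpin and selected with puromycin for 3 days, in all groups alike. The hairpins were shRNA1 (3 libraries) and shRNA2 (3 libraries), both against *Eftud2*, and nt-shRNA (2 libraries), which has no target and served as control. shRNA1 is directed to the 3′ UTR and shRNA2 to the coding sequence. The libraries of a group are described as biological replicates, all from the same line, so p-values measure the spread between these samples of R1 cells.

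The tri-snRNP is the pre-assembled unit by which U4, U6 and U5 snRNAs enter the spliceosome. In it U6 is held inactive by base pairing with U4, and the pairing is unwound by the helicase SNRNP200 before U6 forms the catalytic center, a step in which the GTPase EFTUD2 takes part from within U5. PRPF3, PRPF4 and the cyclophilin PPIH form a heterotrimer on the U4/U6 duplex, and PRPF31 binds the U4 snRNA together with SNU13. SART1, USP39 and SNRNP27 belong to the assembled tri-snRNP, SART3 re-anneals U4 and U6 after each round of splicing, and the kinase PRPF4B and the factor PRPF38A act when the tri-snRNP joins the spliceosome to form the B complex. Variants of *PRPF3*, *PRPF4* and *PRPF31* are known from retinitis pigmentosa.

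Total counts ran from 19569525 to 29871048 per library, and each of the 10 transcripts had at least 988 counts in every library. Levels are given as CPM (counts scaled to a common library size, with TMM factors between 0.935 and 1.036). *Eftud2* itself had 262 and 256 CPM with nt-shRNA, 232, 229 and 225 CPM with shRNA1, and 198, 202 and 235 CPM with shRNA2. Every KD library was below both controls. In edgeR's quasi-likelihood test the log2 fold change was -0.18 for shRNA1, at an adjusted p = 0.0514 just outside the threshold, and -0.29 for shRNA2, at an adjusted p = 0.00122. The shRNA1 value passed in 5 of 15 other settings, among them the replicate number as a block (-0.21, adjusted p = 0.0206), and was -0.07 with scaling by library size alone (adjusted p = 0.498). The paper's qPCR gave larger falls of *Eftud2* than these counts, with shRNA2 as the more potent hairpin. Its western blots showed less EFTUD2 protein with either hairpin. All 8 markers of naive embryonic stem cells that were looked at were expressed, with summed levels of 4357 to 4438 CPM with nt-shRNA, 4855 to 5026 CPM with shRNA1 and 5840 to 6031 CPM with shRNA2. With shRNA2, 6 of these 8 were called higher and 1 lower, beside 27.2% and 28.7% of all tested genes. The lower gene was *Pou5f1* (-0.29, adjusted p = 8.6e-04, edgeR), which was also lower with shRNA1 (-0.35, adjusted p = 3.7e-04). *Sox2* did not pass with shRNA2 (-0.02). Of the higher genes, *Nanog* went from 912 to 1549 CPM and *Klf4* from 185 to 460 CPM. The summed levels of 6 neural markers were 20.6 to 24.3, 31.3 to 33.0 and 44.3 to 64.1 CPM in the same order, those of 6 trophoblast markers 97.8 to 101, 81.4 to 93.9 and 64.8 to 75.1 CPM, those of 6 primitive endoderm markers 44.4 to 45.9, 42.3 to 48.6 and 35.1 to 41.3 CPM, and those of 7 fibroblast markers 21.3 to 23.1, 22.3 to 25.025 and 15.4 to 19.3 CPM. Genes of the naive, neural, trophoblast and fibroblast lists did not move alike, as these and further examples picked after their values were seen show. With shRNA2 the neural genes called higher were *Tubb3* (10.2 CPM with nt-shRNA and 30.5 CPM with shRNA2) and *Neurod1* (0.166 and 8.75 CPM), while *Map2*, *Pax6* and *Sox1* had log2 fold changes of 0.37, -0.42 and -0.21 that did not pass. *Map2* was called higher with shRNA1 (0.84, adjusted p = 4.1e-04, edgeR). In the trophoblast list most of the fall in the sum was that of *Krt7* (29.3 and 4.88 CPM). *Hand1* was also lower, and *Elf5*, *Gata3* and *Tfap2c* had values of 0.75, -0.20 and -0.06 that did not pass. In the fibroblast list *Pdgfrb* was lower (-0.74) and *Col1a2* higher (1.66). In the primitive endoderm list all 5 tested genes had negative log2 fold changes with shRNA2, from -0.75 (*Gata6*) to -0.09 (*Dab2*). Of these, *Gata6* was called lower (adjusted p = 0.000815, edgeR) and the others did not pass. No marker was at 0 in all libraries, but *Postn*, *Lum*, *Dcn*, *Foxa2*, *Cdx2* and *Dcx* were too low to be tested. These summed levels moved with the groups, except that the primitive endoderm and fibroblast sums with shRNA1 overlapped the controls. The part of the marker changes in the results below was not tested. In bulk RNA, a change in the share of a cell type and a change in RNA per cell cannot be told apart.

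*Prpf3* and *Sart1* were the members with the largest changes, so the sequences of their promoters are shown. Both are from RefSeq on GRCm38.p6 and run from 250 bases before the transcription start to 25 bases after it, on the minus strand. Capitals mark matches to an NRF1 core (CGCANGCGC) and to an ETS core (CCGGAAG), each searched on both strands. The windows are chr3:95855861-95856135 for *Prpf3* and chr19:5388679-5388953 for *Sart1*.
Prpf3: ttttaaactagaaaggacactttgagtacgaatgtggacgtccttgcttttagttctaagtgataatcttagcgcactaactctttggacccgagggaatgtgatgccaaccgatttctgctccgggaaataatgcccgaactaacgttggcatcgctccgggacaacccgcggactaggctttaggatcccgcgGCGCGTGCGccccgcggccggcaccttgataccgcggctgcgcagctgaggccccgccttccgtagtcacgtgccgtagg
Sart1: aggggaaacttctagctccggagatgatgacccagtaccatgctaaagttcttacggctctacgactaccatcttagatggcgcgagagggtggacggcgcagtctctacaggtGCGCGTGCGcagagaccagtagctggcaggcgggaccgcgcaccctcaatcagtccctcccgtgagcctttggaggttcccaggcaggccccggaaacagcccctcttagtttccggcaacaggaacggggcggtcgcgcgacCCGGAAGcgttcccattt
The NRF1 core began at position -55 from the start of *Prpf3* and at position -136 from that of *Sart1*. The ETS core was found in *Sart1*, where it began at base 8 after the start. RefSeq windows were matched for 8 of the 10 members, all but *Sart3* and *Usp39*. Of these 8, 2 held the NRF1 core (*Prpf3* and *Sart1*), against 6.23% of 27025 promoter windows of the same length, and 4 held the ETS core (*Ppih*, *Prpf4b*, *Sart1* and *Snrnp27*), against 8.52%. The GC box (GGGCGG) was in 5 of the 8 and in 34.7% of all windows, the CCAAT box (CCAAT) in 2 and in 36.4%, and the E-box (CACGTG) in 1 and in 6.77%. The letters TATAAA were in 0 of the 8 windows and in 13.6% of all. Matches of different motifs that overlapped were each kept. The motifs were chosen with the windows in view, and a match describes letters rather than a site of binding.

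With shRNA2, transcripts of 8 of the 10 members rose, 1 was called lower and 1 did not pass the test. Over all tested genes, 27.2% were called higher and 28.7% lower in this comparison (edgeR's quasi-likelihood test with Benjamini-Hochberg adjustment over all 17445 genes, threshold 0.05). The median log2 fold change of the members was 0.30, beside 0.004 for all tested genes. Taken without sign, the median change was 0.30 for the members and 0.37 for all tested genes, so the members did not change more in size. With shRNA1, 2 of the 10 rose and 0 were called lower, beside 13.8% and 17.1% of all tested genes, and the median was 0.08 against -0.0069. Without sign these medians were 0.09 for the members and 0.22 for all tested genes. At an unadjusted p under 0.05, 2 members were higher and 1 lower with shRNA1 in edgeR. At the adjusted threshold DESeq2, like edgeR, called 0 members lower with shRNA1. The 2 nt-shRNA libraries are shared by these comparisons.

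**Figure D1:**
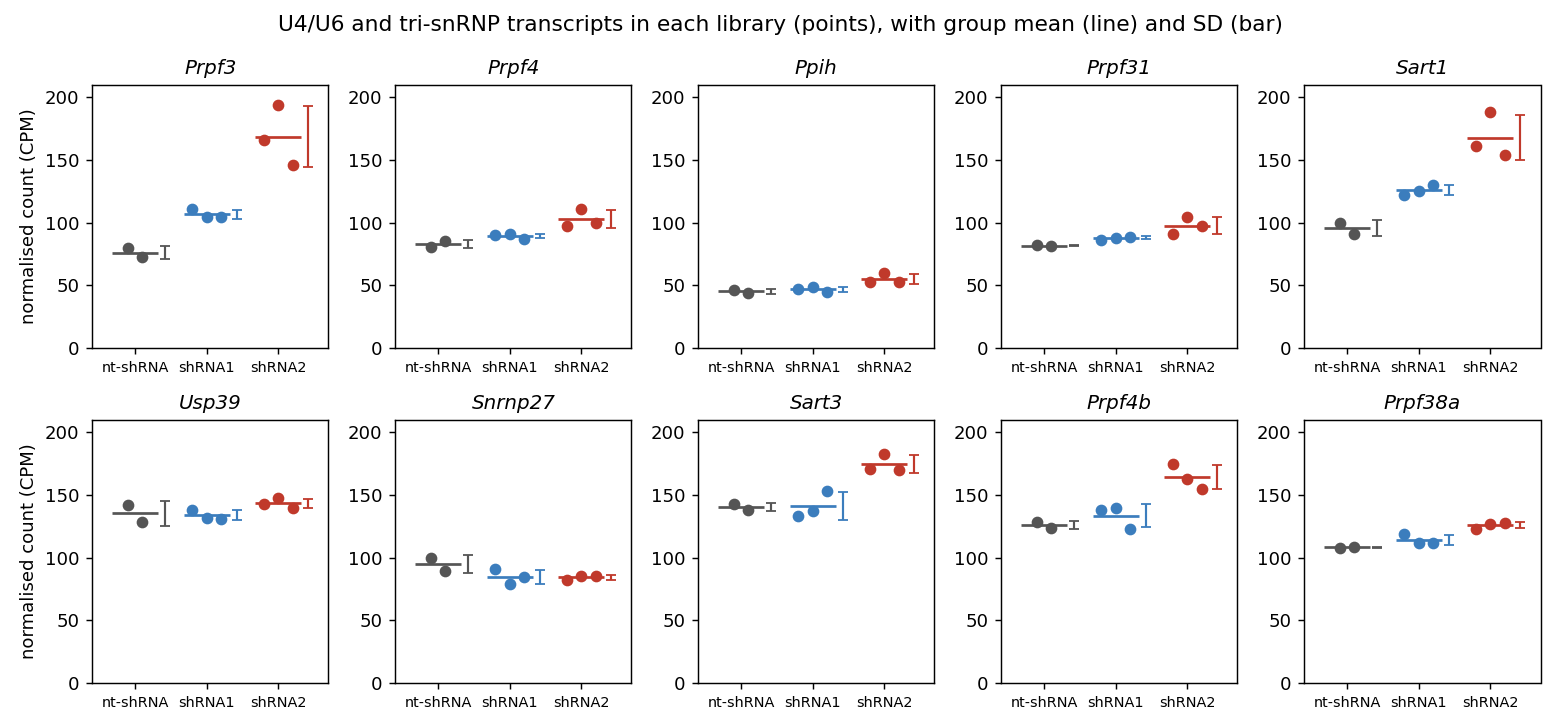
Normalised level (CPM, from 0) of the 10 transcripts in each library. Points are libraries (2 for nt-shRNA, 3 for each *Eftud2* hairpin), lines are group means and bars are SD. *Prpf3* and *Sart1* are stepped apart in the 3 groups, while for *Usp39* the nt-shRNA libraries overlap those of each hairpin.

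The proteins of the U4/U6 di-snRNP were taken first. *Prpf3* encodes the scaffold that clamps the U4/U6 duplex and lies on chromosome 3 of GRCm38 from 95830124 to 95855885. It had 79.7 and 72.4 CPM with nt-shRNA, 111, 105 and 104 CPM with shRNA1, and 166, 194 and 146 CPM with shRNA2. The 3 groups did not overlap. On the log2 scale shRNA1 raised it by 0.49 (SE 0.0894, adjusted p = 4e-04, edgeR). The rise under shRNA2 was 1.15 (SE 0.0903, adjusted p = 4.9e-09), a 2.22-fold higher level.

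*Prpf4*, on chromosome 4 from 62408797 to 62426990, encodes the WD40-repeat partner of PRPF3. It had 81.0 and 85.5 CPM with nt-shRNA, 90.1, 91.0 and 87.2 CPM with shRNA1, and 97.5, 111 and 100.1 CPM with shRNA2. Every KD library was above both controls. The test was passed with shRNA2 (log2 fold change 0.31, adjusted p = 7.8e-04, edgeR) and not with shRNA1 (0.10, adjusted p = 0.263, 95% confidence interval -0.04 to 0.24), where it passed when scaled by library size alone (0.22, adjusted p = 0.0201). Although the proteins bind each other, the ratio of *Prpf3* to *Prpf4* per kb of exon differed by group. It was 0.985 and 0.849 with nt-shRNA, 1.23, 1.15 and 1.198 with shRNA1, and 1.71, 1.75 and 1.46 with shRNA2. *Ppih*, the prolyl isomerase of the same heterotrimer (chromosome 4, 119300010 to 119320546), had 46.7 and 43.7 CPM with nt-shRNA, 47.2, 48.8 and 45.0 CPM with shRNA1, and 52.5, 60.1 and 53.1 CPM with shRNA2. The shRNA1 libraries overlapped the controls (log2 fold change 0.05, 95% confidence interval -0.11 to 0.22), and the shRNA2 libraries were above them (0.29, adjusted p = 0.00364, edgeR). Without nt-shRNA replicate 2 the *Ppih* call was lost (0.24, adjusted p = 0.0661).

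*Prpf31*, which bridges U4/U6 and U5, lies on chromosome 7 from 3629985 to 3642486. It had 82.1 and 81.4 CPM with nt-shRNA, 86.6, 88.3 and 88.9 CPM with shRNA1, and 90.9, 105 and 97.2 CPM with shRNA2. As with *Prpf4*, all KD libraries lay above both controls. The shRNA2 libraries passed the test (log2 fold change 0.25, adjusted p = 0.00303, edgeR) and the shRNA1 libraries did not (0.10, 95% confidence interval -0.03 to 0.24, adjusted p = 0.245). An antisense neighbor, Gm15927, shares 984 bases of exon (18.1% of the exon length of *Prpf31*). Since counts were unstranded, a fragment that fell on both genes was counted for neither, and the *Prpf31* values come mainly from its other exon bases.

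Among the proteins of the assembled tri-snRNP, changes ran from a clear rise to a small decrease. *Sart1* encodes a protein that contacts U4/U6 and U5 and is needed to recruit the tri-snRNP. It lies on chromosome 19 from 5377523 to 5388703. It had 100.1 and 91.0 CPM with nt-shRNA, 122, 125 and 131 CPM with shRNA1, and 162, 188 and 154 CPM with shRNA2. As for *Prpf3*, the 3 groups were separate. Its rise on the log2 scale was 0.40 under shRNA1 (SE 0.0777, adjusted p = 6.6e-04, edgeR). Under shRNA2 it was 0.81 (SE 0.0782, adjusted p = 6.6e-08), a 1.76-fold higher level. An antisense gene shares 368 bases of exon (6.24%) with *Sart1*, and fragments assigned to both were likewise not counted.

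*Usp39* encodes a ubiquitin protease homolog without protease activity that stabilizes the tri-snRNP (chromosome 6, 72318678 to 72345184). It had 142 and 128 CPM with nt-shRNA, 138, 132 and 131 CPM with shRNA1, and 143, 147 and 139.8 CPM with shRNA2. The groups overlapped in both comparisons with the control. Log2 fold changes were -0.02 for shRNA1 (95% confidence interval -0.15 to 0.11, adjusted p = 0.859, edgeR) and 0.08 with shRNA2 (95% confidence interval -0.05 to 0.22, adjusted p = 0.264).

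*Snrnp27*, which encodes a small arginine-serine-rich protein of the tri-snRNP (chromosome 6, 86675151 to 86684522), was the member with the lowest fold change in both comparisons. It had 99.7 and 89.6 CPM with nt-shRNA, 90.6, 79.2 and 84.2 CPM with shRNA1, and 82.2, 84.9 and 85.5 CPM with shRNA2. The shRNA1 libraries overlapped the controls and the shRNA2 libraries were below both. The log2 fold change was -0.17 with shRNA2 (standard error 0.0694, adjusted p = 0.0459, edgeR) and -0.16 with shRNA1 (adjusted p = 0.0857). The shRNA2 call was close to the threshold and was lost in 9 of 15 other settings, among them DESeq2 (adjusted p = 0.067) and the fits without nt-shRNA replicate 1 (adjusted p = 0.422), without shRNA1 replicate 2 (adjusted p = 0.0513) and without shRNA2 replicate 1, 2 or 3 (adjusted p = 0.141, 0.06 and 0.0546). With shRNA1 it was gained without shRNA1 replicate 1 (-0.21, adjusted p = 0.0442).

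*Sart3* encodes the recycling factor that returns U4 and U6 to the duplex (chromosome 5, 113742446 to 113772510). It had 143 and 138 CPM with nt-shRNA, 133, 137 and 153 CPM with shRNA1, and 171, 183 and 170.0 CPM with shRNA2. The shRNA1 libraries lay on both sides of the controls (log2 fold change 0.01, 95% confidence interval -0.13 to 0.15), and all shRNA2 libraries were above them (0.31, standard error 0.0676, adjusted p = 6.3e-04, edgeR).

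The members of the B complex rose with shRNA2 as well. *Prpf4b* encodes a kinase that phosphorylates tri-snRNP proteins (chromosome 13, 34875302 to 34906064). It had 128 and 124 CPM with nt-shRNA, 138, 139 and 123 CPM with shRNA1, and 174, 163 and 155 CPM with shRNA2. Overlap with the controls was seen for shRNA1 and not for shRNA2, and the log2 fold changes were 0.08 (adjusted p = 0.382, edgeR) and 0.38 (standard error 0.0691, adjusted p = 1.1e-04). A lincRNA on the other strand shares 36 bases of exon (0.43%) with *Prpf4b*. *Prpf38a*, needed for activation of the spliceosome (chromosome 4, 108563172 to 108579336), had 108 CPM in both nt-shRNA libraries, 119, 112 and 111 CPM with shRNA1, and 123, 127 and 128 CPM with shRNA2. Its groups were narrow and did not overlap. shRNA2 raised it by 0.22 on the log2 scale (SE 0.0594, adjusted p = 0.00406, edgeR), the smallest rise among the 8 members called higher, and the shRNA1 value of 0.08 did not pass (adjusted p = 0.344).

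Counted by library rather than by test, 5 of the 10 members had every shRNA1 library above both controls (*Prpf3*, *Prpf4*, *Prpf31*, *Sart1* and *Prpf38a*), beside 26.6% of all tested genes above and 30.2% below. With shRNA2 the count was 8 above and 1 below (*Snrnp27*), beside 35.4% and 36.0%. The summed level of the 10 transcripts was 1010 and 962 CPM with nt-shRNA, 1075, 1057 and 1059 CPM with shRNA1, and 1262, 1363 and 1228 CPM with shRNA2. Scaling by library size alone, which moved the median log2 fold change of all genes by about 0.1, to 0.107 with shRNA1 and 0.093 with shRNA2, gave 6 higher members and a median of 0.19 with shRNA1 (*Prpf4*, *Prpf31*, *Prpf4b* and *Prpf38a* in addition), and 9 higher members (*Usp39* in addition) and a median of 0.39 with shRNA2. Under that scaling the genes called higher among all 17445 also went from 2407 to 4101 with shRNA1 and from 4748 to 5850 with shRNA2.

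**Figure D2:**
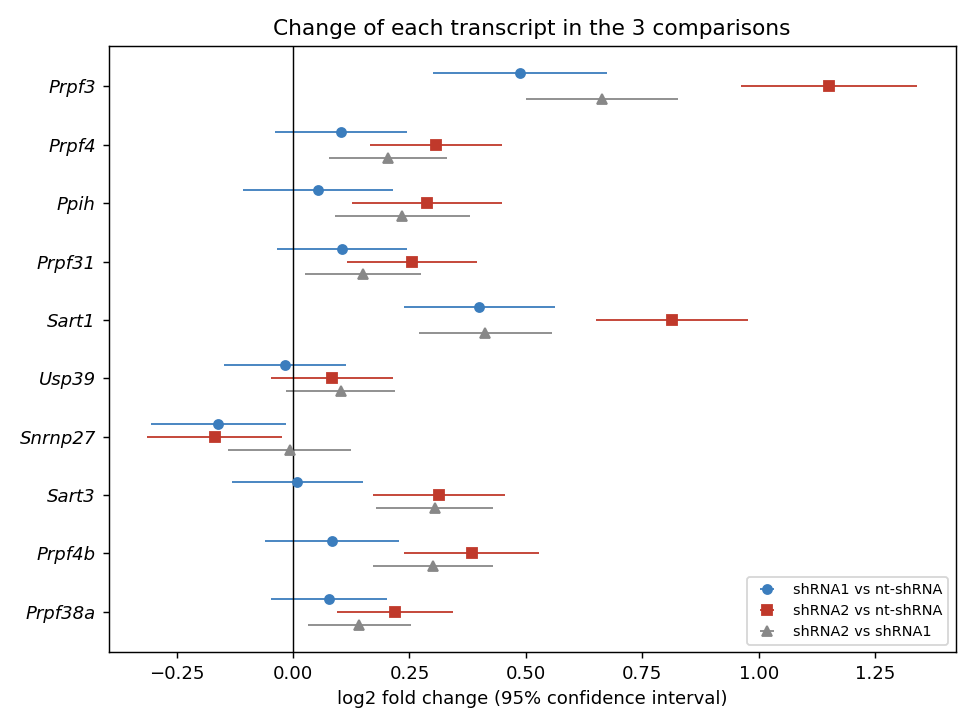
Log2 fold change of each transcript (points) with its 95% confidence interval (bars) for shRNA1 against nt-shRNA, shRNA2 against nt-shRNA and shRNA2 against shRNA1. The shRNA2 values run from -0.17 (*Snrnp27*) to 1.15 (*Prpf3*), and the vertical line marks no change.

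The 2 *Eftud2* hairpins were then compared directly, without the control libraries entering the contrast. In this test 7 of the 10 members were higher with shRNA2 than with shRNA1 and 0 were lower, beside 16.9% and 18.7% of all tested genes. At an unadjusted p under 0.05, 8 were higher and 0 lower in edgeR, and at the adjusted threshold DESeq2 also called 0 lower. The median log2 difference was 0.22, against -8e-04 for all tested genes, and without sign it was 0.22 for both. *Prpf3* had the largest difference, 0.66 (standard error 0.0781, adjusted p = 6e-06, edgeR), followed by *Sart1* at 0.41 (adjusted p = 1.6e-04), *Sart3* at 0.30 (adjusted p = 7.6e-04) and *Prpf4b* at 0.30 (adjusted p = 9.8e-04). *Ppih* (0.23, adjusted p = 0.0126), *Prpf4* (0.20, adjusted p = 0.0133) and *Prpf38a* (0.14, adjusted p = 0.0434) were nearer to the threshold. *Prpf31* did not pass (0.15, 95% confidence interval 0.03 to 0.27, adjusted p = 0.0557), though it passed with shRNA2 replicate 1 left out (0.20, adjusted p = 0.0323), and neither did *Usp39* (0.10, -0.02 to 0.22, adjusted p = 0.168) or *Snrnp27* (-0.01, -0.14 to 0.12, adjusted p = 0.939). In 9 of the 10 members, all but *Snrnp27*, every shRNA2 library was above every shRNA1 library, beside 23.6% of all tested genes above and 24.1% below. In these counts the targeted *Eftud2* differed by -0.11 between the hairpins, with overlapping libraries, and did not pass (adjusted p = 0.164, edgeR). For *Eftud2*, 14 of 15 other settings gave the same outcome. By its qPCR the paper describes shRNA2 as the more potent of the hairpins. Without shRNA2 replicate 2, the library with the highest level of 7 of the 10 members in its group, 4 members were called higher, since *Ppih*, *Prpf4* and *Prpf38a* were lost. *Prpf38a* was also lost in other settings, 10 of 15 in all, among them each fit that left out a library other than shRNA1 replicate 1 (adjusted p between 0.0706 and 0.131, edgeR).

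Levels of different genes were compared only after division by exon length. In nt-shRNA libraries *Usp39* (55.3 ± 4.02 CPM per kb, SD, n = 2) and *Snrnp27* (51.5 ± 3.86) were the highest and overlapped each other. *Sart3* (24.8 ± 0.629) and *Ppih* (23.9 ± 1.13) followed, also overlapping, and then *Prpf38a* (20.4 ± 0.0347) and *Sart1* (16.2 ± 1.09). *Prpf31* (15.0 ± 0.0968), *Prpf4b* (14.9 ± 0.369) and *Prpf4* (14.7 ± 0.556) could not be ordered beyond their spread, and *Prpf3* was the lowest (13.4 ± 0.902). With shRNA1, *Prpf3* was 7 of 10 in this order (18.8 ± 0.637 CPM per kb, SD, n = 3). With shRNA2 it was 4 of 10 (29.8 ± 4.28, n = 3), in overlap with *Sart3* (30.8 ± 1.26) above it and *Ppih* (29.2 ± 2.24) below it, which in turn overlapped *Sart1* (28.4 ± 3.07). Exon length here is that of all annotated exons of a gene, used or not, so these levels are approximate.

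**Figure D3:**
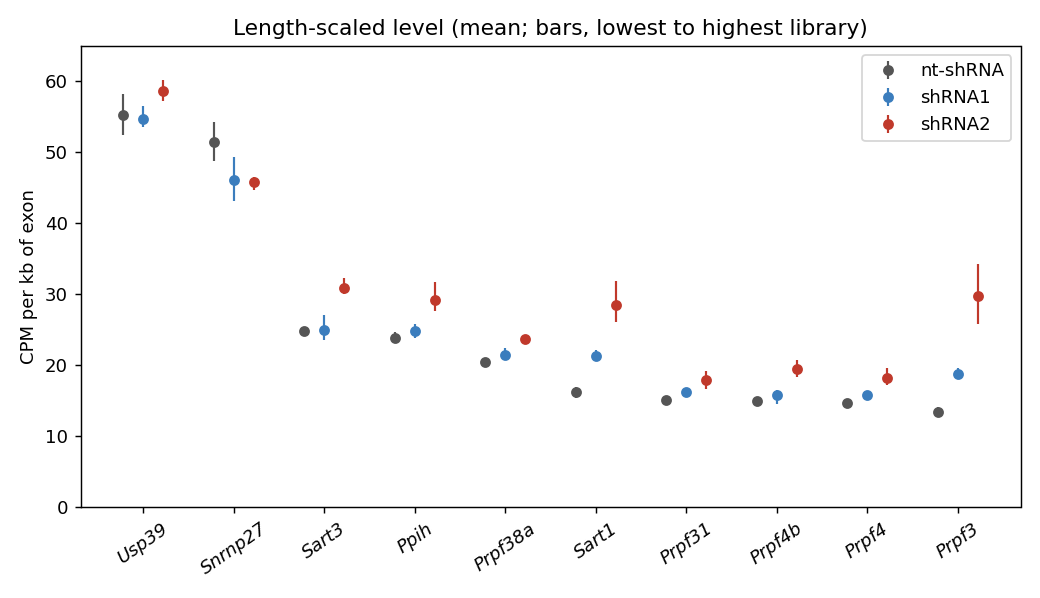
Length-scaled level (CPM per kb of exon, from 0) of the 10 transcripts in nt-shRNA, shRNA1 and shRNA2, ordered by the nt-shRNA mean. Points are means and bars run from the lowest to the highest library. *Prpf3* moves from 13.4 CPM per kb with nt-shRNA to 29.8 with shRNA2.

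Other genes around the tri-snRNP were taken from lists of the same pathway. Of 8 U5 snRNP genes, 6 were called higher and 1 lower with shRNA2, with a median log2 fold change of 0.26, and 2 were called higher with shRNA1. For these lists too, the shares of all tested genes called higher and lower were 27.2% and 28.7% with shRNA2 and 13.8% and 17.1% with shRNA1. *Prpf8*, which encodes the core of the catalytic center, was at 575 ± 5.61 CPM (SD, n = 2) in the controls and rose under shRNA2 to 899 ± 91.3 CPM (SD, n = 3; log2 fold change 0.64, adjusted p = 4.5e-07, edgeR), and *Snrnp200*, the U4/U6 helicase, rose by 0.52 (adjusted p = 1.8e-06). The gene called lower in this list was the targeted *Eftud2*. Of the 7 genes of the LSm2-8 ring, which binds the 3′ end of U6, 1 was higher (*Lsm3*, log2 fold change 0.27, adjusted p = 0.00747, edgeR) and 1 lower (*Lsm4*, -0.38, adjusted p = 3e-04) with shRNA2. *Lsm4* was also lower with shRNA1 (-0.41, adjusted p = 4.6e-04).

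Among 9 genes of U4/U6 assembly and U6 maturation, 5 were higher and 1 lower with shRNA2 (27.2% and 28.7% of all tested genes), and 2 higher and 1 lower with shRNA1 (13.8% and 17.1%). *Mettl16*, the methyltransferase of U6, was at 52.2 ± 2.32 CPM (SD, n = 2) in the controls and at 86.4 ± 10.2 CPM (SD, n = 3) under shRNA2 (log2 fold change 0.73, adjusted p = 1.2e-06, edgeR). *Usb1*, the exonuclease that trims the U6 3′ end, fell from 78.1 ± 6.44 CPM to 53.4 ± 1.93 CPM (log2 fold change -0.55, adjusted p = 2.3e-06). Of 7 further genes of the B complex, 3 were higher with shRNA2 and 4 did not pass, beside the same 27.2% of all tested genes called higher. *Wbp4* rose by 0.28 (adjusted p = 0.00236, edgeR) and *Mfap1b* by 0.53 (adjusted p = 8.1e-04) on the log2 scale, but *Mfap1a* and *Mfap1b* are near-identical copies whose shared fragments were not counted. Both ubiquitin proteases that SART3 brings to tri-snRNP proteins rose with shRNA2, *Usp15* by 0.25 (adjusted p = 0.00341, edgeR) and *Usp4* by 0.14 (adjusted p = 0.0491) on the log2 scale. Of 8 other spliceosomal cyclophilins, relatives of PPIH, 3 were higher and 5 did not pass, again beside 27.2%, with *Ppil4* at 0.53 (adjusted p = 2e-06, edgeR) and *Ppig* at 0.48 (adjusted p = 3.2e-06).

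**Figure D4:**
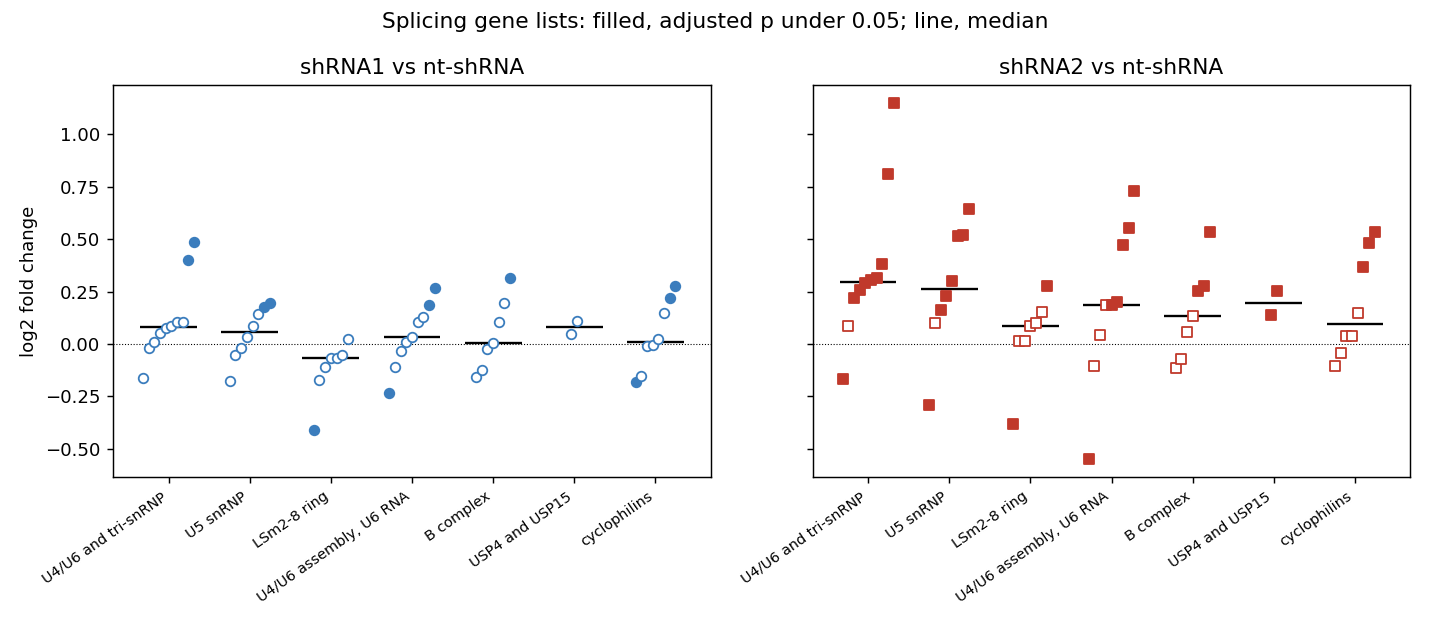
Log2 fold change of every gene in the U4/U6 and tri-snRNP list and in 6 related lists, for shRNA1 (left) and shRNA2 (right) against nt-shRNA. Filled symbols passed the threshold and lines are list medians, which for the U4/U6 and tri-snRNP genes are 0.08 and 0.30.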

How the data were processed

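RNA-Seq libraries of 8 R1 mESC samples were analyzed. The authors aligned reads with STAR to mm10 (GRCm38), and per the file headers featureCounts 1.6.2 assigned paired fragments to exons of GENCODE M24 without strand. The deposited values are raw counts per gene, not normalized, and fragments with several alignments or shared by genes were not counted. Columns were matched to samples by title, and 0 columns were left over. Gene names came from a table of Ensembl identifiers (55144 of 55385 genes matched).

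Counts were analyzed in R 4.3.3 with edgeR 4.0.16. Genes passing filterByExpr (minimum count 10) were scaled by TMM, and each comparison was tested by glmQLFit and glmQLFTest in 1 fit over all 8 libraries in which each group had its own coefficient and no block was used. P-values were two-sided and adjusted by Benjamini-Hochberg over all 17445 tested genes, with a threshold of 0.05. Standard errors were taken from the F statistic, and 95% intervals from the fit's degrees of freedom. The code was tested on simulated data first. Per-gene chi-square statistics between libraries of a group were 3.00 to 11.6, so no library repeated another.

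The genes and lists were chosen with earlier results of these data known. Marker genes of cell types were named as examples after their values were seen. The other genes named for their changes were the 10 members, *Eftud2* and, in each related list, 2 genes with the smallest adjusted p with shRNA2. The called gene furthest in the opposite direction was named as well. The same values were recomputed with DESeq2 1.42.0, with edgeR on DESeq2 size factors or unscaled library sizes, with the expression filter removed or raised to 10 counts in each library, on the compared groups alone, with a block for replicate number, and with each library left out. Promoters were read from RefSeq windows, and figures were drawn with matplotlib 3.10.9. Splicing events were not analyzed here.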

Additional observations from a re-analysis of the deposited data

How the results depend on the processing

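Across 15 alternative settings, *Prpf3* and *Sart1* were called higher in each comparison in every setting, as were *Prpf4*, *Prpf31*, *Sart3*, *Prpf4b* and *Prpf38a* with shRNA2 against nt-shRNA. Scaling by library size alone gave 6 higher members (median 0.194) with shRNA1 and a median of 0.386 with shRNA2, and requiring at least 10 counts in every library gave a median of 0.111 with shRNA1. The single lower member with shRNA2, *Snrnp27*, was lost, leaving 0, with DESeq2, with its size factors in edgeR, with library size alone and with at least 10 counts in every library. With libraries left out in turn, the members lower ranged from 0 to 1 with either hairpin, the members higher with shRNA2 than with shRNA1 from 4 to 7, and those higher with shRNA2 than with nt-shRNA from 7 to 8. Small values changed sign. *Usp39* with shRNA1 was 0.097 with library size alone, 0.013 with at least 10 counts in every library, 0.004 with only the groups compared, and -0.091 to 0.059 with libraries left out. *Sart3* with shRNA1 was -0.055 to 0.052, and *Snrnp27* between hairpins -0.051 to 0.043, with libraries left out. The cause was not tested.

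With the replicate number as a block, *Sart3* with shRNA1 was -0.015, and the members higher were 2 with shRNA1, 8 with shRNA2 and 8 between hairpins, where *Prpf31* passed (0.149, adjusted p = 0.0458, edgeR). All tested genes gave 2694 higher and 3324 lower with shRNA1, 4898 and 5136 with shRNA2, and 3116 and 3402 between hairpins (2941 and 3263 without the block). The numbers were not taken as pairs in the main fit, since the paper names no replicate block for its DESeq2 analysis. Its qPCR did set each KD replicate against the corresponding nt-shRNA replicate. The labels do not say whether a number marks a shared infection, so pairing was left undecided. Deviations from group means of libraries with one number had correlations over genes of -0.026 to 0.074. Each of the 3 shRNA1 libraries had its highest such correlation among shRNA2 libraries with that of its own number. By chi-square of the counts, shRNA1 replicates 1, 2 and 3 were all closest to shRNA2 replicate 3. That measure includes the difference between the hairpins, so it cannot decide whether the numbers are pairs. *Eftud2* with shRNA1 passed with the block (-0.211), with no filter (-0.185), with only the groups compared (-0.157) and without shRNA2 replicate 2 (-0.176) or 3 (-0.177), and was -0.065 with library size alone. With 2 control libraries, leaving out 1 assumes that the other varies as the KD libraries do. The lowest member count in a library was 988, and counting error was not separated from the spread between libraries.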

Other observations

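Within the shRNA2 group the libraries were not alike for these genes. Replicate 2 had the highest level of 7 of the 10 members and replicates 1 and 3 the lowest of 5 each. Replicate 3 had the highest *Eftud2* level of the group (235 CPM, against 198 and 202 CPM) and the lowest levels of *Prpf3* (146 CPM), *Sart1* (154 CPM) and *Prpf4b* (155 CPM), but also the highest levels of *Snrnp27* (85.5 CPM) and *Prpf38a* (128 CPM). With 3 libraries no relation between these levels was tested.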
